A study of Mus musculus with 36 samples.

Results

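Immediate early genes are genes that cells switch on within a short time of a stimulus without first having to make new protein. The 10 examined here were Fos, Fosb, Jun, Junb, Atf3, Egr1, Ier2, Ier3, Myc and Klf6. They were chosen by name, and all 10 were found among the 21955 genes listed in each count table and among the 13436 genes that passed the filter on low counts.

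The libraries held RNA from livers of C57BL/6JN mice, an inbred laboratory strain, taken at 6 time points of regeneration. Young mice were 4 months old and old mice 18 months old, and the submitters named old mice as the treated group. The time points were labelled before, 48, 72, 96, 120 and 240, with no unit and with no account in the labels of how regeneration was started, so the libraries labelled before are called resting and all others later. The series' design text calls the 3 libraries at each of the 12 combinations of age and time biological replicates, and there were 36 libraries in all. No mutation, transgene or drug was named for any group.

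The liver regrows after loss of tissue because resting hepatocytes re-enter the cell cycle, and induction of immediate early genes is known as one of the first events after the injury. Fos and Jun family proteins pair through leucine zippers to form AP-1, a transcription factor, and these genes are transcribed when kinase cascades activate factors already bound at their promoters. Their messages are short-lived.

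The depth of the 36 libraries was 2328233 to 6034446 counts assigned to genes, with a median of 4359436 in young and 4514482 in old libraries. Levels are given in CPM, the usual scaling of counts to a common library total, and a count of 3 in 1 library, used as the floor, was 0.490 to 1.29 CPM. In every group 1 library held Y-linked transcripts (Ddx3y, Eif2s3y, Kdm5d and Uty together at 177 to 321 CPM) and lacked Xist, and in the remaining 24 libraries these 4 genes summed to no more than 0.212 CPM, with Xist at 2570 CPM or above. The labels do not give this split. Among the resting libraries, replicate 1 of each age was the Y-linked one. As liver was sequenced whole, fewer cells of a type and less RNA per cell cannot be told apart.

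Promoters are shown first, those of the 4 members whose window held the letters TGACG. RefSeq (GRCm38.p6) gave a start for 7 of the 10 members, and 250 bases upstream of it were searched on both strands. These letters, the core of the element bound by CREB and ATF proteins, were in 4 of the 7 windows, those of Fos, Fosb, Junb and Atf3, against 17.8% of all 32851 windows of the same length. The window of Jun did not hold them. In the 4 windows printed here 5′ to 3′ along each gene, capitals mark TGACG or its reverse complement CGTCA, and TATAAA.
Fos, chr12:85473640-85473889, plus strand: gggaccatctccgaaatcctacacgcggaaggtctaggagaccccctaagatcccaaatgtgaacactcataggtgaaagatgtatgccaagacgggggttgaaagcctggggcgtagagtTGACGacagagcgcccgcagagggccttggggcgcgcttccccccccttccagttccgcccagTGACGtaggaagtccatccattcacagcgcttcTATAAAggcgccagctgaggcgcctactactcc
Fosb, chr7:19310046-19310295, minus strand: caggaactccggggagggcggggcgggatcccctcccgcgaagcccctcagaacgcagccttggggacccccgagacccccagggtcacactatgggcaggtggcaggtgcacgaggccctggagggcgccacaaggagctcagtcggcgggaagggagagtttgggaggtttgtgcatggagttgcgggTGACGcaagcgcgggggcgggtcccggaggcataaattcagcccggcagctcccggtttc
Junb, chr8:84978749-84978998, minus strand: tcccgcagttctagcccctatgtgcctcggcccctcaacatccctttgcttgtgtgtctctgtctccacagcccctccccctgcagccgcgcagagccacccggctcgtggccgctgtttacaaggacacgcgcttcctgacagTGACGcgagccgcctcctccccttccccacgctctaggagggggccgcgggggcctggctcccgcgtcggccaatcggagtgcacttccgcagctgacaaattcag
Atf3, chr1:191183334-191183583, minus strand: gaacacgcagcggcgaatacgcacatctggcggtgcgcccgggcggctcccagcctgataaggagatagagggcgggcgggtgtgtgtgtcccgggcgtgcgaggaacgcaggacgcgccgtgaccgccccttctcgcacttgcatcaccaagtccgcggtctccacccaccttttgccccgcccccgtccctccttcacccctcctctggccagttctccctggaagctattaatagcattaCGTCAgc
The window of Fos held TGACG 129 and 66 bases before the start and TATAAA 33 bases before it. TATAAA was in 12.4% of all windows and in none of the other 6. In the windows of Fosb, Junb and Atf3 the TGACG letters began 60, 106 and 7 bases before the start. The full element TGACGTCA, which contains TGACG, was in 1.55% of all windows and in 0 of the 7. The AP-1 site TGANTCA was in 6.75% of all windows and in 0 of the 7, and the CArG box, bound by serum response factor, was in 1.47% and in 0 of the 7. The GC-rich letters GGGCGG were in 6 of the 7 windows against 32.7% of all. A match describes letters in this window, and says nothing of binding. A missing match says nothing of sequence outside these 250 bases, nor of Egr1, Ier2 and Myc, which were not searched. Egr1, Ier2 and Myc are named without a sequence.

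Of the AP-1 subunits, Fos, Fosb and Jun stood higher in all 3 resting libraries than in any of the 15 later libraries, in young and in old mice alike. The fall was largest on the log2 scale for Fosb and Fos. The resting libraries themselves lay far apart.

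Fos (chr12:85473890-85477273, plus strand) encodes the founding Fos family subunit of AP-1. In resting young liver it was at 16.4, 180 and 134 CPM in replicates 1, 2 and 3, and in resting old liver at 13.6, 32.2 and 127 CPM. The 15 later young libraries had 1.14 to 8.33 CPM with a median of 5.09, and the 15 later old libraries 1.70 to 11.9 CPM with a median of 4.56. The lowest resting library of each age, the Y-linked one, was still above every later library of that age. The mean of the 5 later groups was lower than the resting level by a log2 fold change of -4.43 ± 0.42 (SE) in young mice (edgeR quasi-likelihood test, Benjamini-Hochberg adjusted p = 4.76e-08). In old mice the log2 fold change was -3.40 ± 0.44 (SE; edgeR adjusted p = 7.51e-06).

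Fosb (chr7:19302696-19310051, minus strand) encodes a close relative of Fos. Its resting levels were 2.7, 42.5 and 31.0 CPM in young and 1.88, 2.23 and 7.99 CPM in old liver. Later young libraries had 0 to 1.94 CPM and later old libraries 0 to 1.69 CPM, with 3 libraries of each age at a count of 0. All later libraries together held 57 counts of Fosb in young and 33 in old mice, so single later values rest on very few counts. In young liver at 48 the 3 libraries held 1 count together against 312 at rest, a ratio of 338 per library size (95% exact interval 60.2 to 13399, for counting error only). At 240 the mean was at least 32.7-fold below the resting mean in young and 5.22-fold in old liver, taking 3 counts per library as the later level. These bounds leave out the spread of the resting libraries, 2.7 to 42.5 CPM in young and 1.88 to 7.99 CPM in old liver. The fitted log2 fold change of the later mean was -5.37 ± 0.49 (SE) in young mice (edgeR adjusted p = 3.27e-08) and -2.93 ± 0.62 (SE) in old mice (edgeR adjusted p = 0.00254), and these sizes depend on the prior count of the fit.

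Jun (chr4:95049034-95052222, minus strand) encodes the central AP-1 partner of the Fos proteins. It was at 434, 823 and 933 CPM in resting young liver and at 327, 374 and 811 CPM in resting old liver. Later libraries had 35.2 to 336 CPM in young mice, with a median of 71.6, and 54.4 to 249 CPM in old mice, with a median of 141. The change of the later mean was -3.04 ± 0.29 (SE) on the log2 scale in young mice (edgeR adjusted p = 5.74e-08) and -1.84 ± 0.31 (SE) in old mice (edgeR adjusted p = 0.000226). Among later groups the young mean of Jun went from 147 ± 35.9 CPM (SD, n = 3) at 48 and 206 ± 113 at 72 to 51.3 ± 15.4 at 240, while the old means were 176 ± 56.9 at 48 and 136 ± 101 at 240.

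Junb (chr8:84974484-84978718, minus strand) encodes a Jun family subunit that can restrain Jun. Resting levels were 92.0, 202 and 221 CPM in young liver and 114, 92.7 and 142 CPM in old liver. Later young libraries had 28.8 to 88.9 CPM and did not overlap the resting ones. Later old libraries had 15.9 to 100 CPM and overlapped 1 resting library. The later mean fell by 1.59 ± 0.27 (SE) on the log2 scale in young mice (edgeR adjusted p = 0.000382) and by 1.09 ± 0.28 (SE) in old mice (edgeR adjusted p = 0.00917).

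The count tables hold 1 value per gene symbol and the use of strand is not given in the sources used here. In the GENCODE M21 annotation Jun overlaps the antisense gene Junos, Junb overlaps Prdx2 on the opposite strand, and Atf3 overlaps the small RNA gene Gm24748. Counts of these 3 members may hold reads of their partners.

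**Figure D1:**
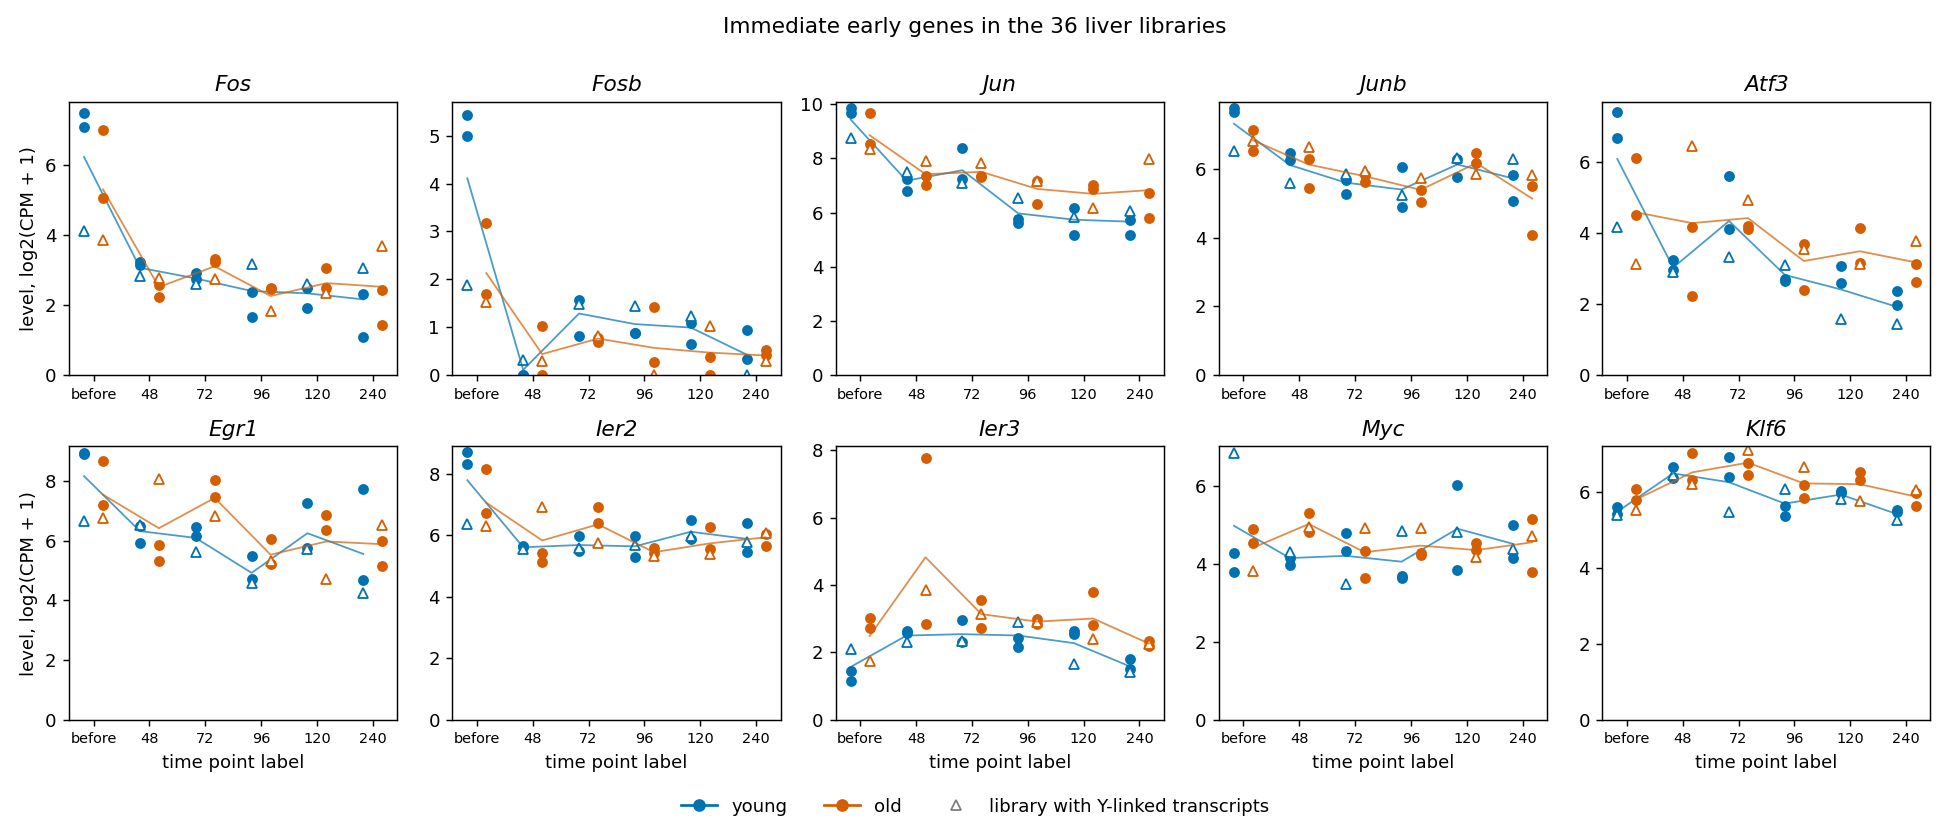
Level of each of the 10 genes in each of the 36 libraries, as log2(CPM + 1), against the time point label, with young libraries in blue and old libraries in orange. Lines join the means of 3 libraries, and open triangles are the libraries with Y-linked transcripts. Fos, Fosb and Jun are highest in the resting libraries of both ages, and 1 old library at 48 stands at 220 CPM of Ier3.

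Atf3, Egr1 and Ier2 were lower in later than in resting young liver, but for each of them the Y-linked resting library of young mice lay within the range of the later libraries. Atf3 (chr1:191170296-191218039, minus strand) encodes a stress-induced factor of the ATF/CREB family. It was at 16.9, 101 and 167 CPM in resting young liver, and the later young libraries had 1.69 to 47.2 CPM. The young later mean changed by -3.80 ± 0.51 (SE) on the log2 scale (edgeR adjusted p = 1.97e-05). In resting old liver Atf3 was at 7.75, 21.4 and 67.8 CPM, and the later old libraries had 3.65 to 85.1 CPM with a median of 11.8. The old change of -1.17 ± 0.56 (SE) did not pass the test (edgeR adjusted p = 0.164). Atf3 in old mice was called in 2 of 46 alternative analyses, over which the adjusted p ran from 0.00423 to 0.998. Without the Y-linked libraries its log2 fold change was -2.10 (adjusted p = 0.00423), and without resting old replicate 3 it was -0.0051.

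Egr1, which encodes a zinc finger factor induced by growth signals, had 101, 481 and 472 CPM in resting young liver and 108, 145 and 400 CPM in resting old liver. Later libraries had 18.0 to 210 CPM in young mice and 25.2 to 268 CPM in old mice. The change of the later mean was -2.42 ± 0.50 (SE) in young mice (edgeR adjusted p = 0.00296) and -1.34 ± 0.53 (SE) in old mice, where it did not pass (edgeR adjusted p = 0.0864). The highest later libraries were young 240 replicate 3 and old 48 replicate 1.

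Ier2 (chr8:84661331-84662852, minus strand) encodes a small nuclear protein of the immediate early response. Its resting levels were 81.3, 418 and 316 CPM in young and 77.5, 106 and 285 CPM in old liver. Later libraries had 38.1 to 89.6 CPM in young and 34.0 to 122 CPM in old mice. The later mean changed by -2.30 ± 0.31 (SE) in young mice (edgeR adjusted p = 2.44e-05) and by -1.37 ± 0.33 (SE) in old mice (edgeR adjusted p = 0.00645). In old mice 1 of the 3 resting libraries lay above every later library.

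Ier3, Myc and Klf6 did not follow the other members. Ier3 (chr17:35821684-35822923, plus strand) encodes a regulator of cell survival. It was low at rest, at 3.33, 1.74 and 1.21 CPM in young and 2.35, 5.58 and 7.07 CPM in old liver. The young resting libraries held 28 counts of it together and the old ones 66. Later young libraries had 1.69 to 6.81 CPM, and the later mean differed from rest by 0.87 ± 0.76 (SE) on the log2 scale (edgeR adjusted p = 0.528). Later old libraries had 3.61 to 220 CPM with a median of 6.20. The highest value was replicate 2 at 48, where the other 2 libraries had 13.6 and 6.14 CPM.

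Myc (chr15:61985391-61990374, plus strand) encodes a factor that drives growth and ribosome production. It was at 114, 12.9 and 18.6 CPM in resting young liver, so the Y-linked library was the highest, opposite to Fos. In resting old liver it was at 13.1, 22.1 and 29.0 CPM. Later libraries had 10.2 to 64.5 CPM in young and 11.5 to 38.5 CPM in old mice. The young later mean differed from rest by -1.21 ± 0.41 (SE) on the log2 scale and did not pass (edgeR adjusted p = 0.0591). Without resting young replicate 1 the sign turned, with a log2 fold change of 0.42 (edgeR adjusted p = 0.671). Over 46 alternatives the adjusted p of this change ran from 0.0244 to 0.671. The old change was 0.10 ± 0.46 (SE; edgeR adjusted p = 0.910).

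Klf6 (chr13:5861482-5870394, plus strand) encodes a Krüppel-like zinc finger factor. Its resting libraries lay close together, at 41.0, 41.5 and 47.7 CPM in young and 45.1, 54.3 and 66.2 CPM in old liver. It was the member with the narrowest resting range at both ages. At 48 the young libraries had 99.4, 80.2 and 85.5 CPM, all above the resting ones. The old libraries at 48 had 72.2, 129 and 77.5 CPM. Klf6 rose by 1.03 ± 0.28 (SE) at 48 and by 0.91 ± 0.28 (SE) at 72 in young mice (edgeR adjusted p = 0.00829 and 0.0245). At 72 the young libraries had 81.6, 120 and 42.8 CPM, the last within the resting range, and without replicate 2 the rise was 0.52 (edgeR adjusted p = 0.249). It rose by 0.75 ± 0.28 (SE) at 48 and by 0.98 ± 0.28 (SE) at 72 in old mice (edgeR adjusted p = 0.0466 and 0.0191). The rise in old mice at 48 was not called in 18 of 46 alternatives, over which the adjusted p ran from 0.0201 to 0.272, and it was 0.47 without old 48 replicate 2. The rises at 72 were not called in 5 of 46 alternatives in young and in 4 of 46 in old mice, where the rise was 0.69 without the Y-linked libraries. By 240 the means were 41.7 ± 4.25 CPM (SD, n = 3) in young and 57.8 ± 8.65 in old mice, close to rest.

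Over the 10 members, 7 were called lower and 0 higher in the young later mean, against 8.86% of all 13436 genes called in either direction and 4.45% called lower. In old mice 5 were called lower and 0 higher, against 14.3% of all genes called and 7.89% called lower. The median log2 fold change of the 10 was -2.36 in young and -1.25 in old mice, and that of all genes was 0.01 and -0.0043. All 3 resting libraries were above every later library for 4 members in young mice (Fos, Fosb, Jun and Junb) and for 3 in old mice (Fos, Fosb and Jun), against 2% and 1.5% of all genes.

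**Figure D2:**
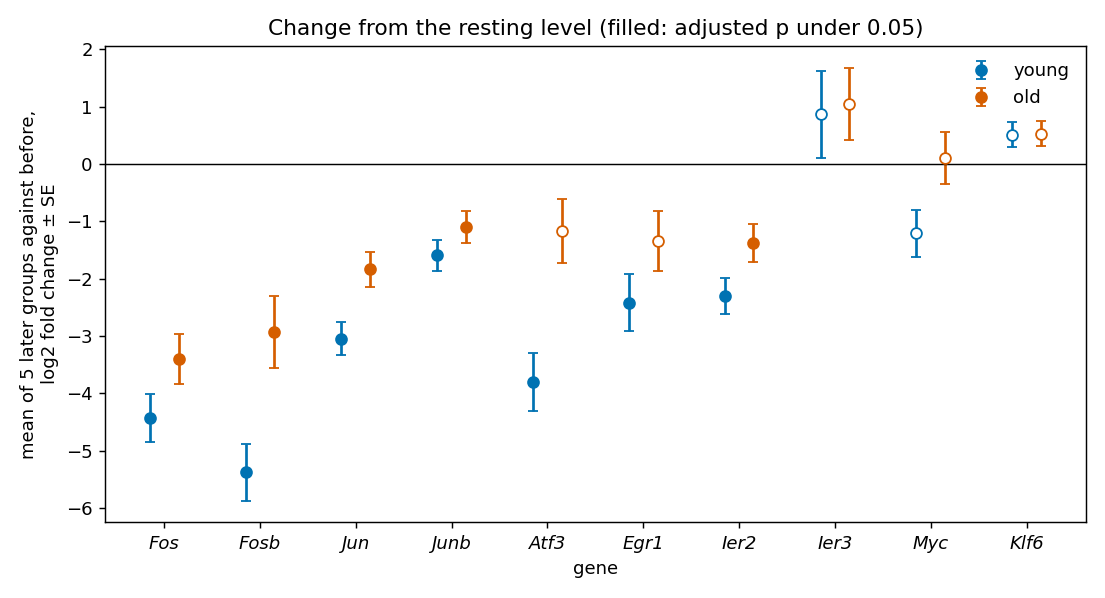
Log2 fold change of the mean of the 5 later groups against the resting group, with its standard error, for each gene in young (blue) and old (orange) mice, where filled points passed an adjusted p of 0.05. Filled points lie below 0 for 7 genes in young and 5 genes in old mice, and no gene is called above 0.

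The calls in old mice rested on 1 library more than those in young mice. Without resting old replicate 3, Fos (adjusted p = 0.0160) and Jun (adjusted p = 0.0400) remained called in edgeR's quasi-likelihood test. Fosb, Junb and Ier2 did not, at adjusted p of 0.165, 0.128 and 0.406, and their log2 fold changes were then -1.95, -0.90 and -0.59. The 7 young calls were made under all 46 alternatives.

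The 5 later groups share the resting libraries of their age, so the results at single time points are not independent of each other. In young mice 8, 7, 7, 4 and 5 members were called at 48, 72, 96, 120 and 240, while 22.1%, 17.5%, 1.44%, 0.595% and 0.26% of all genes were. Fos, Fosb and Jun were called lower at each of the 5. At 240, when 35 of the 13436 genes were called, 5 of them were Fos, Fosb, Jun, Atf3 and Ier2. The call of Ier2 there was lost under 29 of 46 alternatives, with an adjusted p of up to 0.414, that of Atf3 under 5, those of Fos and Fosb under 1 each, and that of Jun under 0. The log2 fold change of Jun there was -3.83 ± 0.50 (SE; edgeR adjusted p = 0.000163), and only 1 gene of all had a lower p. In old mice 5, 3, 4, 2 and 0 members were called, while 24.3%, 12.6%, 6.85%, 4.05% and 0.141% of all genes were. Fos and Jun were called lower from 48 to 120. Without resting old replicate 3, Fos was called at 48 (edgeR adjusted p = 0.0270) and not at 72, 96 and 120 (edgeR adjusted p = 0.165, 0.0629 and 0.155). Jun was then called at none of these 4 (edgeR adjusted p = 0.166, 0.280, 0.0919 and 0.0883). At 240 edgeR's quasi-likelihood test called 0 members, 7 had an unadjusted p under 0.05 (7.81% of all genes did), and Fos stood at -3.24 ± 0.71 (SE; edgeR adjusted p = 0.0547).

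Resting libraries differed among themselves more in these genes than in most. In young mice 6 of the 10 members spanned at least 4-fold between the highest and lowest resting library, against 4.32% of all genes, and in old mice 3 did, against 5.43%. The median span over members was 4.96-fold in young and 3.34-fold in old resting liver, and over all genes 1.36-fold and 1.40-fold. The 6 in young mice were Fos, Fosb, Atf3, Egr1, Ier2 and Myc, and the 3 in old mice were Fos, Fosb and Atf3. Nearest to the threshold in old mice were Fosb inside it at 4.25-fold and Egr1 and Ier2 outside it at 3.71-fold and 3.67-fold, and in young mice Egr1 inside it at 4.78-fold and Ier3 outside it at 2.75-fold. In later groups the median span of members was 1.34-fold to 2.95-fold. At 48 in old mice 4 members spanned 4-fold or had a library at 0, against 12.5% of all genes.

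The lowest resting library was the same for most members. In young mice the Y-linked library was the lowest for 8 of the 10 members and the highest for Ier3 and Myc. In old mice the Y-linked library was the lowest for 9 members, Junb being lowest in replicate 2, and replicate 3 was the highest for all 10. The shares of all genes with the same lowest or highest library were not computed. With the Y-linked library left out, the 2 remaining resting libraries spanned 4-fold for 0 members at either age, against 1.86% of all genes in young and 1.82% in old mice. In young mice they lay close, with a median span of 1.33-fold over members and 1.20-fold over all genes. In old mice they still lay apart, by a median of 2.43-fold over members and 1.18-fold over all genes, and by 3.94-fold for Fos, 3.57-fold for Fosb and 3.16-fold for Atf3. Old replicates 1 and 2 were at 13.6 and 32.2 CPM for Fos, 1.88 and 2.23 for Fosb and 7.75 and 21.4 for Atf3. Spans without replicate 3 were not computed. Within the Y-linked libraries the resting one was above all 5 later ones for 8 of 10 members in young mice and for 4 in old mice (Fos, Fosb, Jun and Junb). Within the other libraries both resting ones were above all 10 later ones for 7 members in young and 5 in old mice. The shares of all genes that did so within each part were not computed, so these counts describe the members only. In the Y-linked libraries of young mice Fos was at 16.4 CPM at rest and 5.07 to 7.98 CPM in the 5 later ones, a ratio of 2.60. In the other young libraries it was at 134 to 180 CPM and 1.14 to 8.33 CPM, a ratio of 33.2. For Jun these ratios were 4.09 and 8.44 in young and 1.76 and 4.79 in old mice. Atf3 in the Y-linked libraries of old mice went the other way, at 7.75 CPM at rest and a mean of 29.2 CPM later, while Egr1 and Ier2 there had ratios of 1.01 and 1.21. The part of this split in the results cannot be told apart from that of the single resting library that carries it.

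**Figure D3:**
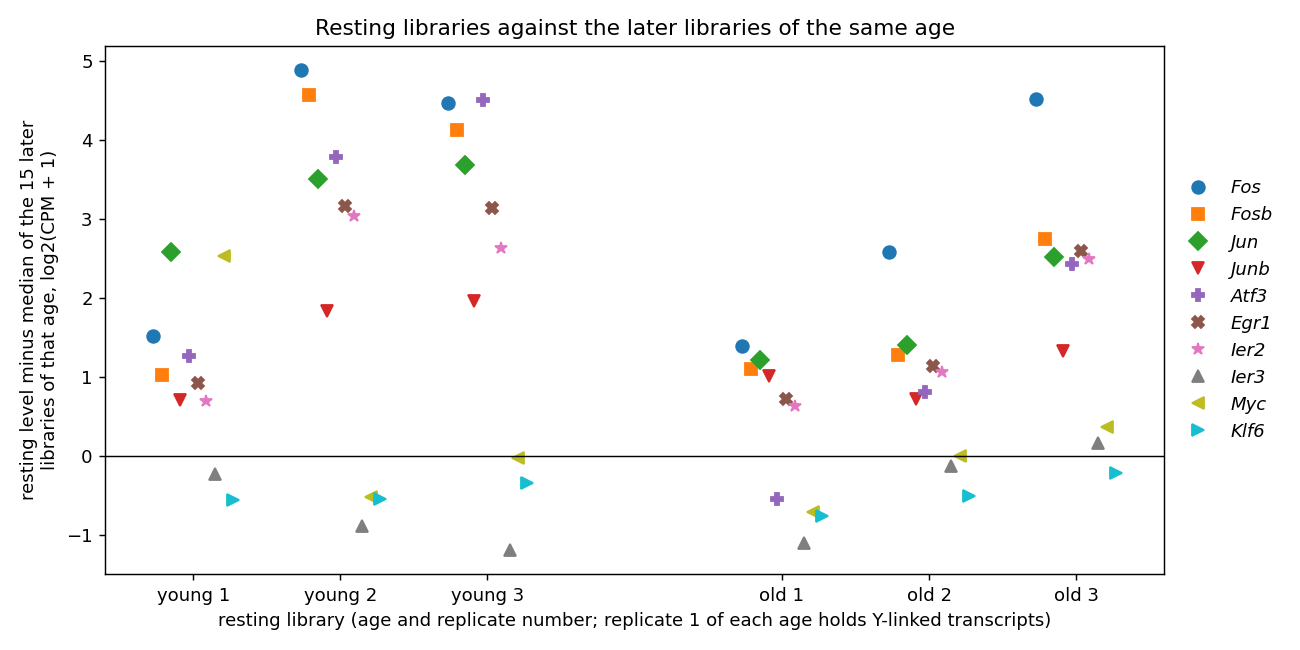
Level of each gene in each of the 6 resting libraries minus the median of the 15 later libraries of the same age, both as log2(CPM + 1). Young replicates 2 and 3 and old replicate 3 stand highest for Fos, Fosb, Atf3, Egr1 and Ier2, and Klf6 lies below 0 in all 6.

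Marker lists and clock genes were read beside these values. The summed hepatocyte markers were at 37666, 40513 and 35175 CPM in resting young and 35036, 27404 and 32532 CPM in resting old replicates 1 to 3, so the library label of liver matched its markers. Summed neutrophil markers were at 5.62, 3.23 and 3.87 CPM in young and 22.3, 12.1 and 8.21 CPM in old replicates, and 1 marker was at 0 in young replicate 1. Summed macrophage and monocyte markers were at 516, 577 and 710 CPM in young and 877, 1026 and 758 CPM in old replicates. Summed endothelial markers were at 436, 503 and 466 CPM in young and 382, 482 and 556 CPM in old replicates, the same order of libraries as Fos, Fosb, Egr1 and Ier2 at both ages. The other members had another order in young mice. The hepatocyte, neutrophil and macrophage sums did not have this order at either age. The share of all genes with it was not computed. In later groups the summed endothelial markers were at 277 to 469 CPM in young and 297 to 431 CPM in old mice. Of the 8 endothelial markers, 0 were called in the young later mean and 2 lower in the old. Of 15 clock genes, 1 was called lower in the young later mean, and 2 were called higher and 7 lower in the old later mean. Beside the endothelial and clock counts, 8.86% of all genes were called in the young and 14.3% in the old later mean. Arntl, a core clock activator, was at 1.04, 0.497 and 1.21 CPM in resting young and 0.939, 1.56 and 1.83 CPM in resting old liver. The floor of 3 counts was 0.624 to 0.746 CPM in these libraries, so the resting levels of Arntl rest on few counts. It was 1 of the 2 clock genes called higher in the old later mean, by 2.13 ± 0.52 (SE; edgeR adjusted p = 0.00735), while 7 went the other way. The part of the clock gene and marker differences in the members' levels was not tested.

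No member passed the test between resting old and resting young liver. In edgeR's quasi-likelihood test 0 of 10 were called between the resting groups, against 0.0595% of all genes, and 3 had an unadjusted p under 0.05, against 7.09%. Fosb had the smallest p, with a mean of 4.03 ± 3.43 CPM (SD, n = 3) in old and 25.4 ± 20.5 in young liver and a log2 fold change of -2.64 ± 0.68 (SE; edgeR adjusted p = 0.187). It was called without resting young replicate 1 (-3.18, edgeR adjusted p = 0.0424) and without the Y-linked libraries (-2.85, edgeR adjusted p = 0.0488), and over 45 alternatives its adjusted p ran from 0.0424 to 0.739.

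The test of the age difference in the fall called 0 of 10 members, against 0.00744% of all genes. The difference was positive, that is, the change was less negative in old mice, for all 10, and 4 had an unadjusted p under 0.05, against 5.71% of all genes. It was 2.63 ± 0.86 (SE) for Atf3, 2.44 ± 0.92 for Fosb, 1.31 ± 0.63 for Myc and 1.21 ± 0.49 for Jun on the log2 scale, with edgeR adjusted p of 0.777, 0.790, 0.858 and 0.790. The signs of Ier3, Myc and Klf6 turned in some alternatives, with log2 differences of -0.57, -0.65 and -0.15 without the Y-linked libraries. The joint test of age by time called 0 of 10, against 2.91% of all genes, and 3 (Ier3, Atf3 and Jun) had an unadjusted p under 0.05, against 14.4%.

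Ier3 was the only member called between the ages over the 6 time points, where 6.13% of all genes were. Its mean was higher in old mice by 1.37 ± 0.34 (SE) on the log2 scale (edgeR adjusted p = 0.0137). Without old 48 replicate 2 the difference was 0.87 (edgeR adjusted p = 0.00328), and without the Y-linked libraries it was 1.60 and did not pass (edgeR adjusted p = 0.0554). At 48 Ier3 was higher in old mice by 4.07 ± 0.76 (SE; edgeR adjusted p = 0.000949), where 11.4% of all genes were called, and that value rested on the library at 220 CPM. Without it the difference was 1.04 (edgeR adjusted p = 0.195), and over 45 alternatives the adjusted p ran from 1.31e-06 to 0.197. At 72, 96, 120 and 240 edgeR's quasi-likelihood test called 0 members between the ages, against 0%, 0.402%, 0.0819% and 0.0149% of all genes, and DESeq2 called 0 there too. At an unadjusted p under 0.05 there were 0, 0, 1 and 1 members, against 4.97%, 13.4%, 10% and 5% of all genes, and both were Jun. In the same way the rise from rest to 48 in old mice was 3.99 ± 0.76 (SE; edgeR adjusted p = 0.000470), and 0.99 (edgeR adjusted p = 0.117) without that library. Klf6 was higher in old mice over the 6 time points by 0.36 ± 0.11 (SE), which missed the threshold (edgeR adjusted p = 0.0543) and passed it in 12 of 44 alternatives.

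The deviations of libraries from their group means described how members varied together. Members were split into the 7 called lower in the young later mean and Ier3, Myc and Klf6. The split came from these same libraries, so the medians describe it and do not test it. Over 36 libraries the 21 pairs among Fos, Fosb, Jun, Junb, Atf3, Egr1 and Ier2 had a median Pearson r of 0.52, and the 24 pairs with Ier3, Myc or Klf6 had a median of 0.03. Without the Y-linked libraries these medians were 0.38 and 0.23, and the lowest r among the 7 genes was -0.36. In the 6 resting libraries, which share only 2 group means and are few, the first median was 0.95, and in the 30 later libraries it was 0.31. The lowest r among the 7 genes was 0.83 in the resting and -0.43 in the later libraries. Fosb was near 0 counts in the later libraries.

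**Figure D4:**
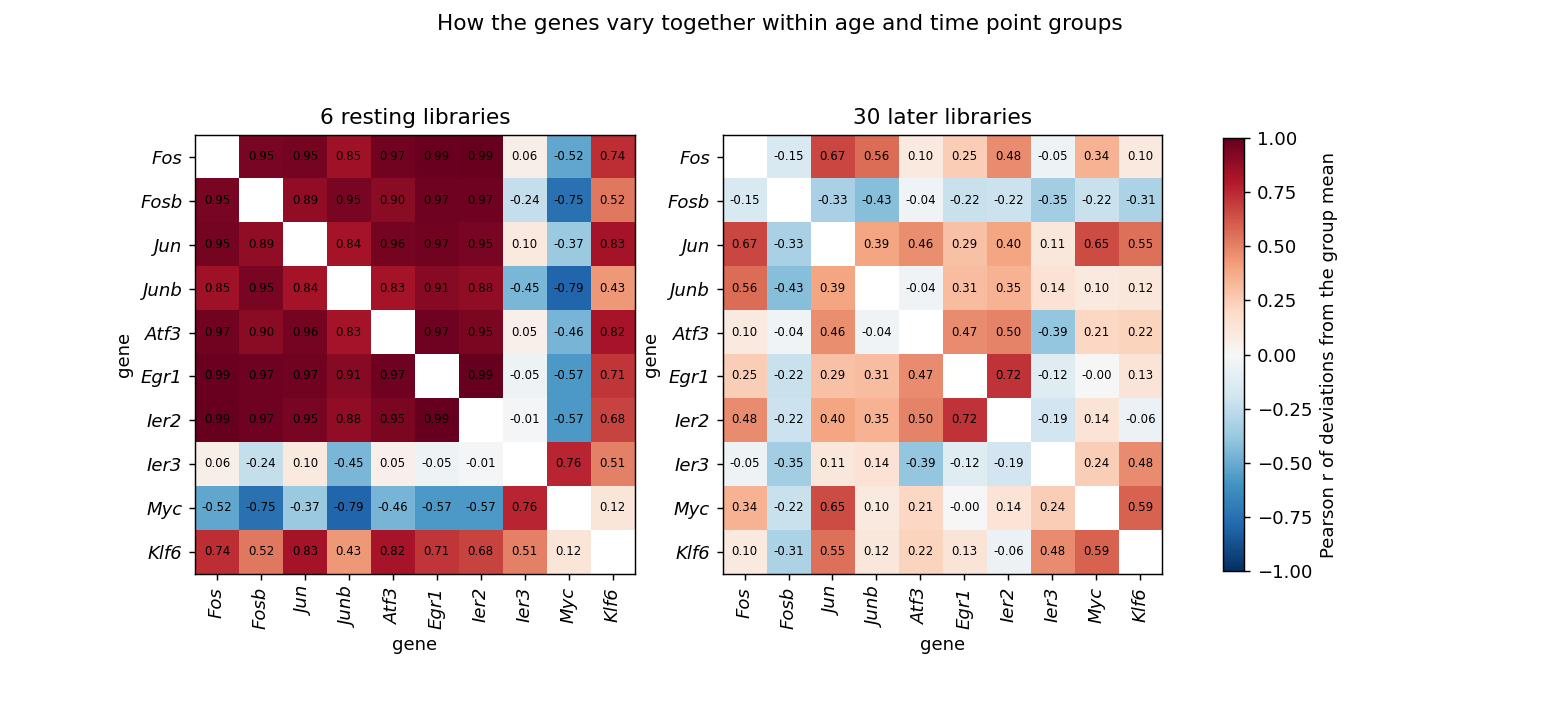
Pearson r between the deviations of log2(CPM + 1) from the group mean for each pair of genes, over the 6 resting libraries (left) and the 30 later libraries (right), from -1 in blue to 1 in red. The 7 genes from Fos to Ier2 are red throughout at rest, with a median of 0.95. In the later libraries their median is 0.31 and the lowest r is negative, at -0.43.

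The genes most like the mean profile of the members over 36 libraries were Btg2 (r = 0.92), Actg1 (r = 0.86), Gdf15 (r = 0.85), Nr4a1 (r = 0.82) and Irf2bp2 (r = 0.80). By deviations from group means they were Btg2 (r = 0.80), Nr4a1 (r = 0.70), Elf2 (r = 0.65), Actg1 (r = 0.62) and Ifrd1 (r = 0.59). Btg2, an anti-proliferative gene, was at 62.0, 283 and 258 CPM in resting young and 94.4, 67.7 and 250 CPM in resting old liver, the same high and low libraries as Fos in young mice. For single members the closest gene by deviations was Elf2 for Fos, Tubb2a for Jun, Map3k14 for Junb, Usp1 for Atf3, Celsr1 for Egr1, Acnat1 for Ier2, Sgms1 for Ier3, Stk35 for Myc and Nid1 for Klf6, with r from 0.61 to 0.88. These r describe libraries that share groups and depth.

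Per length of exons the order of the members was much the same in both ages. At rest Jun was highest, at 229 CPM per kb in young and 158 in old mice, followed by Ier2 at 179 and 102. In later libraries Jun and Ier2 were still the highest, at 32.8 and 36.6 CPM per kb in young and 45.3 and 40.7 in old mice, and Fosb was the lowest at both ages.

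Among other early response genes more were called lower than higher at both ages. Of 38 listed, 35 were tested, and in the young later mean 1 was called higher and 15 lower, with a median log2 fold change of -0.55. In the old later mean 1 was called higher and 13 lower, with a median of -0.36. Of all genes, 4.41% were called higher and 4.45% lower in the young later mean, and 6.42% and 7.89% in the old. Nr4a1, an orphan nuclear receptor gene, went from 51.4 to 2.69 CPM in young mice (-4.27 ± 0.36, SE; edgeR adjusted p = 4.96e-09) and from 29.6 to 3.88 CPM in old mice (-3.05 ± 0.37, SE; edgeR adjusted p = 3.91e-06). Ier5, a relative of Ier2, rose in both ages, by 1.67 ± 0.27 in young and 1.12 ± 0.25 in old mice (log2, SE).

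Genes that damp these signals included some of the largest falls of the early response lists, Dusp1 and Zfp36. Of 21 tested, 1 was called higher and 6 lower in young mice, and 1 higher and 4 lower in old mice. Called higher among all genes were 4.41% in young and 6.42% in old mice, and called lower 4.45% and 7.89%. Dusp1, a phosphatase of MAP kinases, was lower by -2.37 ± 0.32 and -2.65 ± 0.31 (log2, SE) in young and old mice. Zfp36, which speeds the decay of short-lived messages, changed by -2.20 ± 0.18 and -2.29 ± 0.18. Over both lists 16 of 56 genes were called lower in both ages, 1 was called higher in both, and 0 were called in opposite directions. The shares of all genes called in both ages were not computed.

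**Figure D5:**
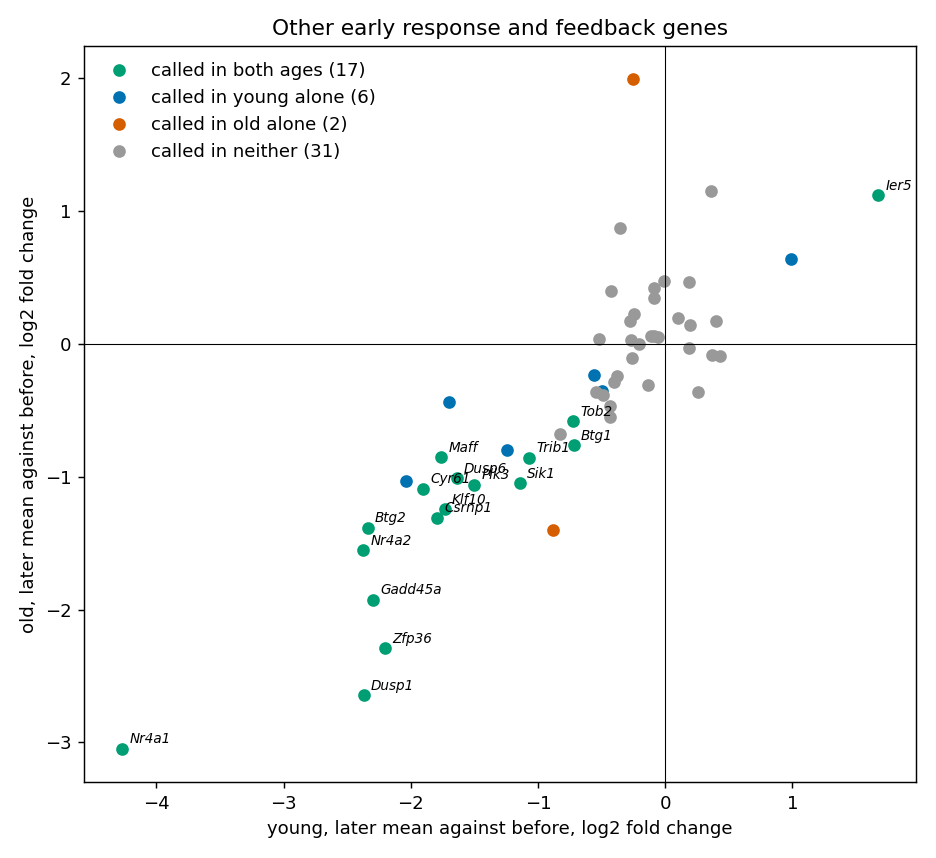
Log2 fold change of the later mean against rest in old mice (y axis) and young mice (x axis) for 56 other early response and feedback genes. Colours give the ages in which a gene was called, and the 17 genes called in both include Nr4a1 and Dusp1 at the lower left and Ier5 at the upper right.

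Of 26 signal transducers and their DNA-binding targets, 1 was called lower in young mice (Srf, -0.66 ± 0.18, SE) and 4 lower in old mice. Of the 10 tested genes of the Myc network 0 were called in young mice (1 had an unadjusted p under 0.05), and 1 higher and 1 lower in old mice. Of 16 genes known as Myc targets, edgeR's quasi-likelihood test called 0 in young mice, 5 having an unadjusted p under 0.05, and 6 higher in old mice, among them Cad at 0.94 ± 0.21 and Srm at 0.69 ± 0.21 (log2, SE).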

How the data were processed

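RNA of 36 mouse livers was sequenced after ribosomal RNA removal, with ERCC spike-in named in the labels and 0 ERCC entries in the tables. The deposited values are whole-number counts per gene symbol, made by the authors and not normalized. Per the submitters' processing notes the tools included bcl2fastq 2.20.0, Trimmomatic 0.39, FastQC 0.11.9, STAR 2.7.5b, SAMtools 1.10, Picard 2.20.8, deepTools 3.5.0 and featureCounts on GRCm38. Roles and settings, including strand, are not given in the sources used here.

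The fit used edgeR 4.0.16 under R 4.3.3: filterByExpr, TMM scaling (factors 0.930 to 1.13), 1 mean for each of the 12 groups, and the quasi-likelihood F test, with Benjamini-Hochberg adjustment over all 13436 genes and calls at an adjusted p under 0.05. The standard error is the absolute log2 fold change divided by the square root of F. The test was checked on simulated data. The common biological coefficient of variation was 24.7%. P-values set each difference against the spread between libraries of the same group. Each gene had 1 estimate of that spread, shared by all 12 groups. For the members the resting groups were wider, with a median SD of log2(CPM + 1) of 1.27 in young and 0.80 in old mice. In later groups it was 0.18 to 0.64. Standard errors and p-values of changes from rest may therefore understate the resting spread. Alternatives were DESeq2 1.42.0, other scalings and filters, fits of only the groups compared, a replicate block, the Y-linked libraries left out or as a term, and each library left out in turn. Replicate numbers were not treated as pairs. Same-numbered libraries of an age had a mean correlation of 0.058, from -0.38 to 0.58, and those of other numbers -0.025. Among pairs on the same side of the Y-linked split the mean was 0.24 (from -0.14) for the same number and 0.18 for other numbers. Replicate 1 carried the Y-linked transcripts among young libraries labelled before, 120 and 240, replicate 2 among those labelled 96, and replicate 3 for labels 48 and 72. Among old libraries, replicate 1 carried them for labels before, 48, 96 and 240, and replicate 3 for 72 and 120. Young numbers and old numbers 1 and 3 thus changed side of the split, so they do not mark the same mouse throughout. The mean correlations were slightly higher for the same number and the ranges overlapped, so they do not decide whether numbers mark pairs of another kind. No 2 libraries of a group agreed within sampling noise.

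Members and lists were chosen with earlier results of these data known. All members are named. From other lists at most 2 called genes in each direction are named, those with the largest change at a mean of at least 1 CPM, and the genes most like the members are the 5 with the highest r, with the closest gene for each single member (1 is not reported here). A background of spans over genes with a mean of at least 1 CPM and 1 over the 2 resting libraries without Y-linked transcripts were added after seeing the data.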

Additional observations from a re-analysis of the deposited data

How the results depend on the processing

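Called changes of single members numbered 59, of which 25 were called under every alternative that gave a value, 34 were lost under at least 1, and 0 changed sign. The number of members called in the young later mean stayed at 7 under all 10 alternatives other than leaving out single libraries, and was 7 to 8 without single libraries. In the old later mean it was 5, and 2 to 7 without single libraries (2 without resting old replicate 3). Young time points gave 31 calls, 23 to 33 without single libraries. Old time points gave 14 calls, 3 to 19 without single libraries (3 without resting old replicate 3), 22 without the Y-linked libraries, 22 by DESeq2 and 8 when only the groups compared were fitted, where 45 of 50 tests could be made. Old against young by later time point gave 1 call, 1 to 2 without single libraries, 0 when only the groups compared were fitted and 2 by DESeq2. Old against young over 6 time points gave 1 call, 1 to 2 without single libraries, 0 without the Y-linked libraries, 2 with the Y-linked split as a term and 2 by DESeq2. Old against young at rest gave 0 calls, 0 to 1 without single libraries and 1 without the Y-linked libraries. The age by time interaction gave 0 calls, 0 to 1 without single libraries. The age difference in the fall gave 0 calls under every alternative run. The number of members spanning 4-fold at rest went from 6 to 0 in young and from 3 to 0 in old mice without the Y-linked libraries. Leaving out any library can lower a span by itself, and this count was not made without another resting library. The cause of these differences was not tested.

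Replicate numbers were not treated as pairs in the main fit. With the replicate number as a block the young and old later means gave 7 and 5 calls, young and old time points 29 and 17, and old against young over 6 time points 2. Nested in age, the block gave 7, 6, 28 and 17. Total-count scaling moved the median of all genes by up to 0.20 on the log2 scale, at 72 in young mice, and changed no sign of a called member. Depth limited Fosb, which was at 3 counts or fewer in 18 of 36 libraries.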
